A study of Drosophila melanogaster with 6 samples.

Results

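The Toll and IMD pathway components were 32 genes chosen by symbol: *spz*, *Tl*, *Myd88*, *tub*, *pll*, *Pli*, *cact*, *dl*, *Dif*, *nec*, *psh*, *SPE*, *grass*, *modSP*, *imd*, *key*, *ird5*, *Tak1*, *Tab2*, *Fadd*, *Dredd*, *Rel*, *pirk*, *Diap2*, *ben*, *Uev1A*, *trbd*, *CYLD*, *casp*, *POSH*, *Traf6* and *scny*. All 32 were found among the 17558 genes of the files, and all 32 passed the filter on low counts that left 9277 genes for testing. The rule that chose them uses symbols and no measured values. No pathway transcript passed the main test between the groups, which only 0.0970% of all genes tested passed. Control library 1 was the highest or the lowest of the 6 libraries for 25 of the 32 (78.1%), beside 70.0% of all genes tested. Of all ratios between pairs of the transcripts within a library, that of *modSP* to *grass* had the widest gap between the groups.

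Toll and IMD are the pair of NF-κB pathways through which the fly fat body answers infection by making antimicrobial peptides. In the Toll pathway, a cascade of proteases in the hemolymph cleaves the ligand Spätzle, which binds the receptor Toll, and adaptors and a kinase inside the cell then bring about loss of the inhibitor Cactus, so that Dorsal and Dif enter the nucleus. In the IMD pathway, bacterial peptidoglycan is sensed by receptors that act through the adaptor Imd, ubiquitin-modifying enzymes and kinases, and the NF-κB factor Relish is cleaved and activated. Most of these steps act on proteins, so transcript levels do not measure pathway activity.

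RNA was measured in dissociated fat body cells from the abdomens of adult females, with 3 libraries labelled *svp* RNAi and 3 *Luc* control RNAi libraries. *svp* encodes a nuclear receptor, and the control hairpin targets luciferase, which the fly genome does not encode; the labels give the control genotype as Wild-type and the study's methods give it as *Luc* RNAi. In both groups the hairpin was driven by *3.1Lsp2-Gal4*, which targets adipocytes, together with *PromE800-Gal4*, which targets oenocytes, under *tub-Gal80ts* in a *y w* background. Females of both groups were raised at 18° and were up to 2 days old at the start. They were then kept with *y w* males at 18° for 3 days. After that, the hairpin was induced at 29° for 5 days. Carcasses of 100 females per genotype were pooled, and no infection is described. The study asked which transcripts respond to *svp* in the fat body, and the comparison addressed here is whether those of the Toll and IMD pathways do.

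The *svp* transcript itself did not show the lower level that the labels imply. In the libraries labelled *svp* RNAi it had 1480, 1214 and 1421 counts (67.1, 86.9 and 82.4 CPM), against 678, 1141 and 1168 (28.9, 77.5 and 79.0 CPM) in the *Luc* controls. CPM are counts scaled to library size times a TMM factor, which corrects for composition. These factors were 1.13, 0.893 and 1.03 in the libraries labelled *svp* RNAi and 1.39, 0.837 and 0.824 in the *Luc* controls. Control library 1 was thus scaled down most. The log2 fold change was 0.35 (SE 0.39, edgeR adjusted p = 1.00), and 0.04 (SE 0.17) without control library 1. The 6 libraries held 15648948 to 19476599 counts on genes. All 7 hemocyte markers and all 12 ovary markers were detected in every library beside the adult fat body markers, whose summed level was 7994 to 10699 CPM in the libraries labelled *svp* RNAi and 4415 to 9509 CPM in the *Luc* controls. Most of that sum was *apolpp*, at 6836 to 9279 CPM in the libraries labelled *svp* RNAi and 3455 to 7834 CPM in the *Luc* controls. Of the 10 fat body markers listed, 8 were found in the files and 7 were tested. Log2 fold changes were above 0 for 2 of the 7 and below 0 for 5, with a median of -0.25. In such bulk libraries, fewer cells of a type and less RNA per cell cannot be told apart. *Luc* control RNAi library 1 stood apart: over all genes tested it was the highest or the lowest of the 6 libraries for 70.0%, and it held midgut markers at a summed 1336 CPM, against 7.44 and 13.9 CPM in the other 2 controls. The libraries labelled *svp* RNAi held 31.1, 6.80 and 571 CPM of them. Control library 2 was the highest or the lowest for 51.2% of all genes tested. Its muscle markers summed to 1802 CPM, against 270 and 588 CPM in control libraries 1 and 3. They summed to 504 to 678 CPM in the libraries labelled *svp* RNAi. Oenocyte markers summed to 8642 to 12876 CPM in the libraries labelled *svp* RNAi and 4213 to 19149 CPM in the *Luc* controls.

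The pathway transcripts spanned a wide range of levels. Levels are compared between genes as the deposited FPKM, which are counts scaled to gene length and library total, averaged here over all 6 libraries. *Rel*, which encodes Relish, was the most abundant at a mean of 250.3 FPKM, followed by *nec*, encoding the serpin that holds the Persephone branch of the Toll cascade in check, at 197 FPKM. *SPE*, the protease that cleaves Spätzle, averaged 132 FPKM, and *Uev1A*, *cact*, *pirk* and *ben* averaged 132, 130.2, 72.1 and 66.9 FPKM. Of the 32, 7 averaged at least 50 FPKM, 19 between 10 and 50 FPKM, and 6 under 10 FPKM. The lowest were *POSH*, *Fadd* and *Traf6*, at 8.67, 7.65 and 5.37 FPKM. Even these were well counted, since the smallest count of any pathway transcript in any library was 83 and the largest 19436. As a group, the 32 took 0.297 to 0.335% of the counts in the libraries labelled *svp* RNAi and 0.311 to 0.348% in the *Luc* controls.

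**Figure D1:**
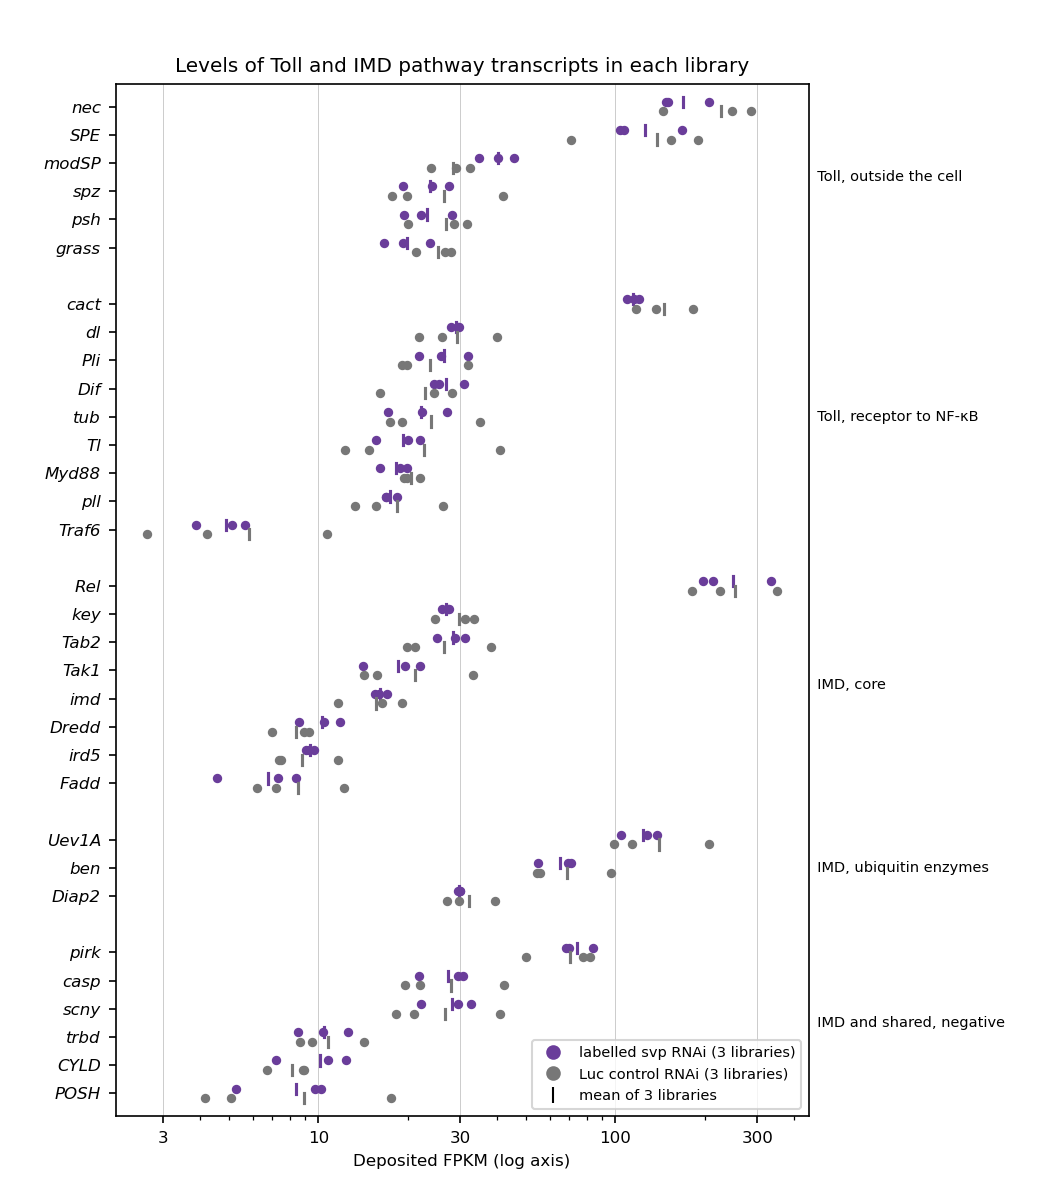
Deposited FPKM (horizontal log axis) of the 32 Toll and IMD pathway transcripts, by role, in the 3 libraries labelled *svp* RNAi (purple, upper row of each gene) and the 3 *Luc* control RNAi libraries (grey, lower row), with a tick at each group's mean. *Rel* is the most abundant at a mean of 250.3 FPKM and *Traf6* the least at 5.37 FPKM, and the FPKM of *modSP* is the only one whose groups do not overlap.

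Between the groups, 0 of 32 pathway transcripts passed the test at an adjusted p under 0.05 (edgeR's quasi-likelihood test), where 0.0970% of all genes tested did, 9 of 9277. At an unadjusted p under 0.05 the count was also 0 of 32, where 4.99% of all genes passed, and DESeq2 called 0 of 32, where it called 1.44% of its 10589 genes. The fitted log2 fold changes were above 0 for 10 and below 0 for 22 transcripts, between -0.56 (*nec*) and 0.41 (*modSP*). Their median was -0.09, beside -0.06 over all genes tested. Standard errors ran between 0.16 and 0.56. For 25 of the 32, the 95% interval of the fold change lay inside a 2-fold difference in either direction. The other 7, *nec*, *SPE*, *psh*, *grass*, *modSP*, *Dif* and *Rel*, had intervals that reached past 2-fold on at least 1 side. They did so below for *nec*, *psh* and *grass*, above for *modSP* and *Dif*, and on both sides for *SPE* and *Rel*. With 3 libraries against 3, an exact permutation test of 1 gene cannot give a p under 0.1.

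**Figure D2:**
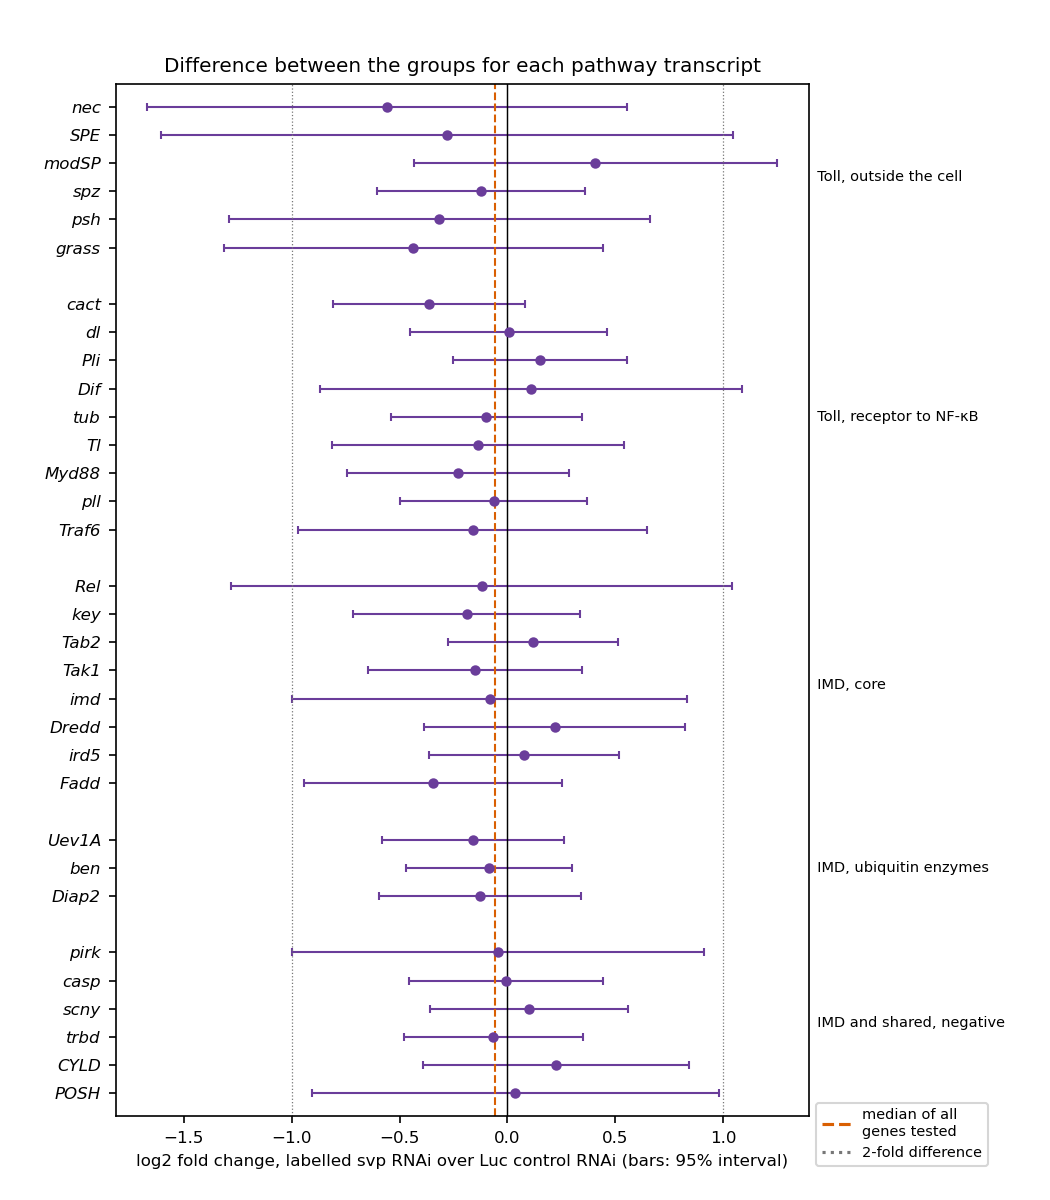
Fitted log2 fold change (horizontal axis, libraries labelled *svp* RNAi over *Luc* control RNAi, 3 libraries each) of each pathway transcript with its 95% interval, beside the median of all genes tested (dashed, -0.06) and a 2-fold difference (dotted). The values lie between -0.56 for *nec* and 0.41 for *modSP*, and all 32 intervals include 0.

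Complete separation of the groups was seen for 3 transcripts in CPM scaled by TMM, edgeR's correction for differences in composition between libraries. *Pli* was higher in all 3 libraries labelled *svp* RNAi, which is 1 of 32 where 4.51% of all genes were so, and *cact* and *Fadd* were lower in all 3, which is 2 of 32 where 4.82% were so. In FPKM, which have no such correction, 1 transcript was separated and higher (*modSP*; 7.73% of all genes) and 0 were separated and lower (4.37% of all genes). These counts are close to those of all genes, and which transcripts separate turns on the scaling.

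The extracellular components of the Toll pathway had the lowest median of the 5 role groups, -0.30 over 6 transcripts, of which 5 were below 0 and none passed the test. The ligand gene *spz* (chromosome 3R from 27064990 to 27070070; BDGP6 build, as for all positions here) had 48.5, 43.1 and 46.7 CPM (counts 1069, 602 and 805) in the libraries labelled *svp* RNAi, against 60.3, 42.1 and 48.2 CPM (counts 1417, 620 and 712) in the *Luc* controls. The groups overlapped, and control library 1 was the highest of the 6 (log2 fold change -0.12, SE 0.20). *nec* (2R, 7156477 to 7158241) had 214, 377 and 238 CPM (counts 4723, 5269 and 4107) in the libraries labelled *svp* RNAi, against 170.1, 484 and 567 CPM (counts 3994, 7127 and 8384) in the *Luc* controls. In CPM it spanned the widest range after *SPE*, with control library 1 below every other library and control libraries 2 and 3 above all (log2 fold change -0.56, SE 0.47). *SPE* (3R, 23686255 to 23688147) had 116, 238 and 131 CPM (counts 2564, 3318 and 2256) in the libraries labelled *svp* RNAi, against 64.7, 233 and 291 CPM (counts 1519, 3433 and 4301) in the *Luc* controls, with the same order of the controls (log2 fold change -0.28, SE 0.56). *SPE* overlaps the annotated gene *CG18754* on the same strand, and reads shared by the pair cannot be assigned with certainty.

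The proteases upstream of *SPE* are ModSP, which acts on Grass downstream of pattern recognition proteins, and Persephone, encoded by *psh*, which is activated by microbial proteases. *modSP* (3R, 16652446 to 16655662) had 70.0, 117 and 89.6 CPM (counts 1545, 1634 and 1546) in the libraries labelled *svp* RNAi, against 39.4, 79.3 and 89.9 CPM (counts 926, 1168 and 1329) in the *Luc* controls, so that libraries of both groups overlapped in CPM (log2 fold change 0.41, SE 0.35). In FPKM, *modSP* had 34.7, 45.6 and 40.4 in the libraries labelled *svp* RNAi (mean 40.2 ± 5.48, SD, n = 3) and 23.9, 29.0 and 32.4 in the *Luc* controls (mean 28.4 ± 4.28, SD, n = 3), and each library labelled *svp* RNAi lay above each control. *grass* (3R, 27157948 to 27159781) had 19.9, 36.2 and 25.3 CPM (counts 439, 505 and 436) in the libraries labelled *svp* RNAi, against 20.8, 43.3 and 46.0 CPM (counts 488, 638 and 680) in the *Luc* controls, again with overlap (log2 fold change -0.44, SE 0.37). Neither gene overlaps another annotated gene. *psh* lay at 28.2 to 51.8 CPM in the libraries labelled *svp* RNAi and 23.8 to 63.4 CPM in the *Luc* controls (log2 fold change -0.32, SE 0.41).

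Within each library, *modSP* was about as abundant as *grass* in the controls and clearly more abundant in the libraries labelled *svp* RNAi. The ratio of their FPKM was 2.08, 1.91 and 2.10 in the libraries labelled *svp* RNAi (mean 2.03 ± 0.102, SD, n = 3) and 1.12, 1.08 and 1.16 in the *Luc* controls (mean 1.12 ± 0.0366, SD, n = 3). The ratio is taken inside a library, so that no scaling between libraries enters it, and control library 1 did not stand apart from the other 2 controls. The ratio of *modSP* to *psh* was 1.79, 1.62 and 1.82 in the libraries labelled *svp* RNAi and 1.19, 1.01 and 1.02 in the *Luc* controls, and that of *modSP* to *nec* was 0.233, 0.221 and 0.269 in the libraries labelled *svp* RNAi and 0.165, 0.117 and 0.113 in the *Luc* controls. These pairs were chosen after all 496 ratios among the 32 transcripts had been computed, as those with the widest gaps between the groups, so they are a description with no test. Of the 496 ratios, 55 (11.1%) did not overlap between the groups, where 11.6% of the ratios between all pairs of 9171 genes with a count in every library did not, so that such ratios were no more common here. The 8 of 31 with *modSP* and the 5 of 15 among the extracellular components that did not overlap include the pairs picked for their gaps. By contrast, *modSP* over *SPE* overlapped, at 0.334, 0.273 and 0.379 in the libraries labelled *svp* RNAi and 0.337, 0.188 and 0.171 in the *Luc* controls. The ratio of *nec* to *psh* in FPKM, the inhibitor and the protease of 1 branch, lay between 6.78 and 9.01 in all 6 libraries. The highest FPKM over the 6 libraries was 1.98 times the lowest for *nec* and 1.64 times for *psh*.

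**Figure D3:**
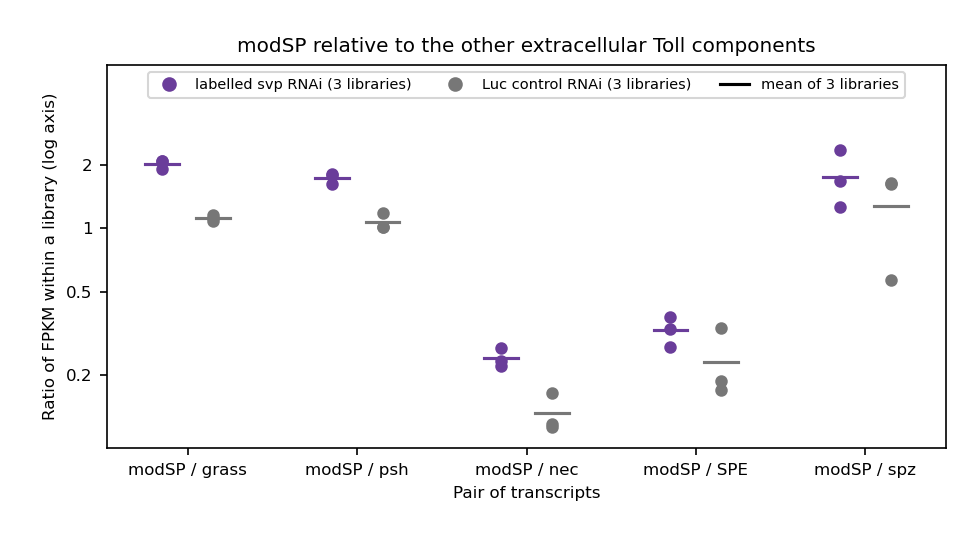
Ratio of the FPKM of *modSP* to that of each other extracellular Toll component (vertical log axis) within each of the 3 libraries labelled *svp* RNAi (purple, left) and the 3 *Luc* control RNAi libraries (grey, right), with a bar at each mean. The ratio to *grass* lies between 1.91 and 2.10 in the libraries labelled *svp* RNAi and between 1.08 and 1.16 in the controls, and the ratios to *SPE* and *spz* overlap.

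From the receptor to the NF-κB factors of the Toll pathway, the median over 9 transcripts was -0.10, with 3 above 0, 6 below 0 and none past the test. The receptor gene *Tl* (3R, 26799041 to 26842403) had 96.9, 87.4 and 97.2 CPM (counts 2137, 1221 and 1677) in the libraries labelled *svp* RNAi, against 147, 73.0 and 89.6 CPM (counts 3452, 1076 and 1324) in the *Luc* controls; control library 1 was the highest and control library 2 the lowest (log2 fold change -0.14, SE 0.28). *Myd88*, encoding the adaptor that binds the receptor, had 51.5, 53.0 and 53.5 CPM (counts 1137, 741 and 922) in the libraries labelled *svp* RNAi, against 46.6, 69.7 and 68.9 CPM (counts 1095, 1027 and 1019) in the *Luc* controls, and control library 1 alone brought the groups to overlap (log2 fold change -0.23, SE 0.22). *tub* and *pll* encode the adaptor Tube and the kinase Pelle that join MyD88, and *Traf6* encodes a TRAF-family adaptor that binds Pelle. *tub* lay at 38.7 to 48.0 CPM in the libraries labelled *svp* RNAi and 41.8 to 50.8 CPM in the *Luc* controls (log2 fold change -0.10, SE 0.19). *pll* lay at 30.7 to 35.8 CPM in the libraries labelled *svp* RNAi and 30.6 to 36.0 CPM in the *Luc* controls (log2 fold change -0.06, SE 0.18), so both overlapped between the groups. *Traf6*, the least abundant of the 32, had 14.0, 12.1 and 13.9 CPM (counts 308, 169 and 239) in the libraries labelled *svp* RNAi, against 21.5, 8.82 and 14.3 CPM (counts 504, 130 and 211) in the *Luc* controls (log2 fold change -0.16, SE 0.34).

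*Pli* encodes Pellino, a ubiquitin ligase family member that binds Pelle. It had 67.0, 58.0 and 59.5 CPM (counts 1477, 810 and 1026) in the libraries labelled *svp* RNAi, against 54.8, 54.4 and 57.1 CPM (counts 1288, 801 and 844) in the *Luc* controls, and although the groups did not overlap, the lowest library labelled *svp* RNAi exceeded the highest control by little (log2 fold change 0.15, SE 0.17).

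*cact*, which encodes the IκB protein Cactus that keeps Dorsal and Dif in the cytoplasm, was the transcript closest to the threshold. It lies on 2L from 16313036 to 16326207 and overlaps *fzy* on the other strand. It had 221, 256 and 233 CPM (counts 4866, 3578 and 4020) in the libraries labelled *svp* RNAi, against 275, 341 and 298 CPM (counts 6453, 5022 and 4399) in the *Luc* controls, with every library labelled *svp* RNAi below every control (log2 fold change -0.36, SE 0.19, edgeR adjusted p = 1.00). In FPKM, *cact* had 119.8, 109.6 and 115 in the libraries labelled *svp* RNAi (mean 115 ± 5.09, SD, n = 3) and 183, 137 and 118 in the *Luc* controls (mean 146 ± 33.4, SD, n = 3), and here the groups overlapped, since the highest value of the libraries labelled *svp* RNAi lay above that of control library 3. Leaving out each library in turn gave log2 fold changes between -0.42 and -0.28. *cact* over the sum of *dl* and *Dif* in FPKM was 2.24, 1.81 and 2.13 in the libraries labelled *svp* RNAi (mean 2.06 ± 0.226, SD, n = 3) and 3.26, 2.53 and 2.54 in the *Luc* controls (mean 2.77 ± 0.418, SD, n = 3). This ratio of inhibitor to targets did not overlap between the groups. Among ratios between pairs of single genes, 11.6% did not overlap, and no such share was computed for ratios to a sum. The ratio was chosen after the values were seen, so it is a description with no test.

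*dl* and *Dif* encode the Toll pathway's NF-κB factors and are neighbours on 2L on the same strand, 3668 bases apart (*Dif* from 17413248 to 17433161, *dl* from 17436830 to 17450364). *dl* had 80.7, 109 and 93.8 CPM (counts 1779, 1524 and 1617) in the libraries labelled *svp* RNAi, against 94.4, 102 and 86.4 CPM (counts 2216, 1496 and 1278) in the *Luc* controls, the smallest difference of all 32 (log2 fold change 0.01, SE 0.19). *Dif* had 68.6, 105 and 72.6 CPM (counts 1514, 1473 and 1252) in the libraries labelled *svp* RNAi, against 35.4, 103 and 90.8 CPM (counts 832, 1514 and 1343) in the *Luc* controls, in which control library 1 was far below the rest (log2 fold change 0.11, SE 0.41). *Dif* over *dl* in FPKM was 0.911, 1.03 and 0.829 in the libraries labelled *svp* RNAi and 0.402, 1.08 and 1.12 in the *Luc* controls, so these neighbours were about equally abundant except in control library 1.

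The core of the IMD pathway, 8 transcripts, had a median of -0.10, with 3 above 0, 5 below 0 and none past the test. *imd* (2R, 18409796 to 18413599), the gene of the adaptor that names the pathway, had 19.4, 27.1 and 22.0 CPM (counts 427, 379 and 379) in the libraries labelled *svp* RNAi, against 11.9, 27.8 and 32.9 CPM (counts 279, 409 and 486) in the *Luc* controls (log2 fold change -0.08, SE 0.39). *Fadd* and *Dredd* encode the adaptor and the caspase that Imd recruits. *Fadd* (3R, 22034455 to 22035617) had 8.66, 5.94 and 8.23 CPM (counts 191, 83 and 142) in the libraries labelled *svp* RNAi, against 10.3, 9.98 and 8.79 CPM (counts 241, 147 and 130) in the *Luc* controls, lower in all 3 libraries labelled *svp* RNAi, with 2 of them close to the lowest control (log2 fold change -0.34, SE 0.25). *Fadd* overlaps *pit* on the same strand. *Dredd* lay at 15.8 to 17.2 CPM in the libraries labelled *svp* RNAi and 10.6 to 18.3 CPM in the *Luc* controls (log2 fold change 0.22, SE 0.25).

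*Tak1* and *Tab2* encode a kinase and its partner, and *ird5* and *key* encode the catalytic and regulatory subunits of the IκB kinase. *key* (2R, 24785514 to 24787411) had 34.4, 41.5 and 37.5 CPM (counts 759, 580 and 647) in the libraries labelled *svp* RNAi, against 34.1, 52.6 and 42.6 CPM (counts 800, 775 and 630) in the *Luc* controls (log2 fold change -0.19, SE 0.22). The regulatory subunit was the more abundant of this pair, *key* over *ird5* in FPKM lying between 2.82 and 4.22 in all 6 libraries. *ird5* lay at 21.2 to 25.8 CPM in the libraries labelled *svp* RNAi and 20.9 to 22.7 CPM in the *Luc* controls (log2 fold change 0.08, SE 0.19). *Tak1* lay at 39.8 to 49.0 CPM in the libraries labelled *svp* RNAi and 43.0 to 60.4 CPM in the *Luc* controls (log2 fold change -0.15, SE 0.21). *Tab2* was the steadiest of these in CPM, at 88.4 to 90.3 CPM in the libraries labelled *svp* RNAi and 76.2 to 88.5 CPM in the *Luc* controls (log2 fold change 0.12, SE 0.17).

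*Rel* (3R, 9044183 to 9047977) had 550.1, 1183 and 653 CPM (counts 12134, 16526 and 11259) in the libraries labelled *svp* RNAi, against 412, 1319 and 860.1 CPM (counts 9681, 19436 and 12716) in the *Luc* controls. The groups overlapped over nearly their whole range (log2 fold change -0.12, SE 0.49). Its level ordered the libraries as *Hml*, a gene that marks hemocytes, did: *Hml* had 453, 1086 and 555 CPM in the libraries labelled *svp* RNAi and 338, 1103 and 596 CPM in the *Luc* controls. The 7 hemocyte markers summed to 956, 2222 and 1174 CPM in the libraries labelled *svp* RNAi and 808, 2430 and 1442 CPM in the *Luc* controls, and their part in the level of *Rel* was not tested. *Rel* overlaps *Nmdmc* on the same strand. Over the sum of *dl* and *Dif*, *Rel* was 3.70, 5.53 and 3.95 in FPKM in the libraries labelled *svp* RNAi and 3.23, 6.47 and 4.85 in the *Luc* controls, so the IMD pathway's NF-κB transcript outnumbered both of those of Toll in every library.

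The ubiquitin enzymes of the IMD pathway are Diap2, a ubiquitin ligase, and Bendless and Uev1a, a conjugating enzyme and its partner. The 3 transcripts had log2 fold changes between -0.16 and -0.08 and differed at most 1.39-fold in CPM between any of the 6 libraries. In CPM, though not in FPKM, *ben* varied least of the 32. It had 105, 103 and 113 CPM in the libraries labelled *svp* RNAi and 117, 109 and 114 CPM in the *Luc* controls. *Uev1A* over *ben* in FPKM was between 1.81 and 2.14 in all 6 libraries. *Diap2* lay at 53.4 to 68.8 CPM in the libraries labelled *svp* RNAi and 58.1 to 74.3 CPM in the *Luc* controls.

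The negative regulators, 6 transcripts, had a median log2 fold change of 0.01, with 3 above 0, 3 below 0 and none past the test. *pirk* (2R, 21660967 to 21662995), whose product interferes with signaling from the receptor to Imd and whose transcription Relish activates, had 97.2, 149 and 104 CPM (counts 2144, 2075 and 1796) in the libraries labelled *svp* RNAi, against 56.9, 147 and 157 CPM (counts 1337, 2162 and 2321) in the *Luc* controls (log2 fold change -0.04, SE 0.40). *Rel* over *pirk* in FPKM was between 2.73 and 4.49 in all 6 libraries. *POSH* (2R, 17568732 to 17572322), a scaffold with ubiquitin ligase activity that acts on Tak1, had 28.7, 18.8 and 29.9 CPM (counts 632, 262 and 516) in the libraries labelled *svp* RNAi, against 40.2, 15.7 and 19.5 CPM (counts 944, 231 and 288) in the *Luc* controls; control library 1 was the highest and control library 2 the lowest (log2 fold change 0.04, SE 0.40). *trbd*, *CYLD* and *scny* encode deubiquitinating enzymes and *casp* encodes Caspar, an inhibitor of Relish cleavage. *trbd* lay at 35.2 to 40.7 CPM in the libraries labelled *svp* RNAi and 37.7 to 42.3 CPM in the *Luc* controls (log2 fold change -0.07, SE 0.17). *CYLD* lay at 16.2 to 21.9 CPM in the libraries labelled *svp* RNAi and 12.9 to 21.2 CPM in the *Luc* controls (log2 fold change 0.23, SE 0.26). *scny* lay at 101 to 117 CPM in the libraries labelled *svp* RNAi and 88.7 to 120.4 CPM in the *Luc* controls (log2 fold change 0.10, SE 0.19). *casp* lay at 62.6 to 72.9 CPM in the libraries labelled *svp* RNAi and 59.5 to 77.9 CPM in the *Luc* controls (log2 fold change -0.01, SE 0.19), and all of these overlapped between the groups.

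The spread over the 6 libraries differed widely between the transcripts. The ratio of the highest to the lowest CPM over the 6 libraries was at least 2 for 12 of the 32 transcripts. Its median was 1.54, beside 2.29 over all genes tested, and it ran between 1.14 for *ben* and 4.50 for *SPE*. The ranking turned on the scaling. In FPKM the same ratio was 1.77 for *ben* and 2.67 for *SPE*, and it ran between 1.34 for *key* and 4.25 for *POSH*. In CPM, control library 1 was the highest of the 6 for 12 transcripts and the lowest for 13, so it was at an extreme for 25 of 32 (78.1%, against 70.0% of all genes tested). Library 3 of those labelled *svp* RNAi was at an extreme for 0 of 32, against 11.7% of all genes tested, the lowest share of the 6 libraries.

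Ovary transcripts varied between the libraries along with a set of pathway transcripts. The ovary score, the mean log2 CPM of 12 ovary genes, was 6.33, 4.50 and 5.35 in the libraries labelled *svp* RNAi and 6.03, 4.23 and 4.44 in the *Luc* controls. With the groups in the model, 9 of the 32 transcripts fell with this score at an adjusted p under 0.05 in edgeR's test: *SPE*, *Rel*, *nec*, *psh*, *Dif*, *pirk*, *grass*, *imd* and *modSP*. Over all genes tested, 15.1% fell with it. *POSH* was the 1 transcript that rose with it, where 17.1% of all genes did. The falling transcripts included 5 of the 6 extracellular Toll components and both *Rel* and *Dif*, while *dl*, *cact* and the 3 ubiquitin enzymes did not pass. Slopes were between -0.86 (*SPE*) and 0.54 (*POSH*) in log2 CPM per unit of the score. The score was read from the same 6 libraries and this relation was looked at after their values were seen. Libraries 1 and 3 of those labelled *svp* RNAi and control library 1 had the highest scores and also the highest TMM factors (1.03 to 1.39). The slopes cannot be told apart from that scaling, and none was fitted to FPKM. In the same fit all 7 hemocyte markers and 5 of the 7 adult fat body markers fell with the score, and 0 rose. Hemocyte markers and adult fat body markers were lowest in control library 1 and, for hemocytes, next lowest in library 1 of those labelled *svp* RNAi, where the ovary score was high. The part of any of these cells in the levels of the pathway transcripts was not tested.

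**Figure D4:**
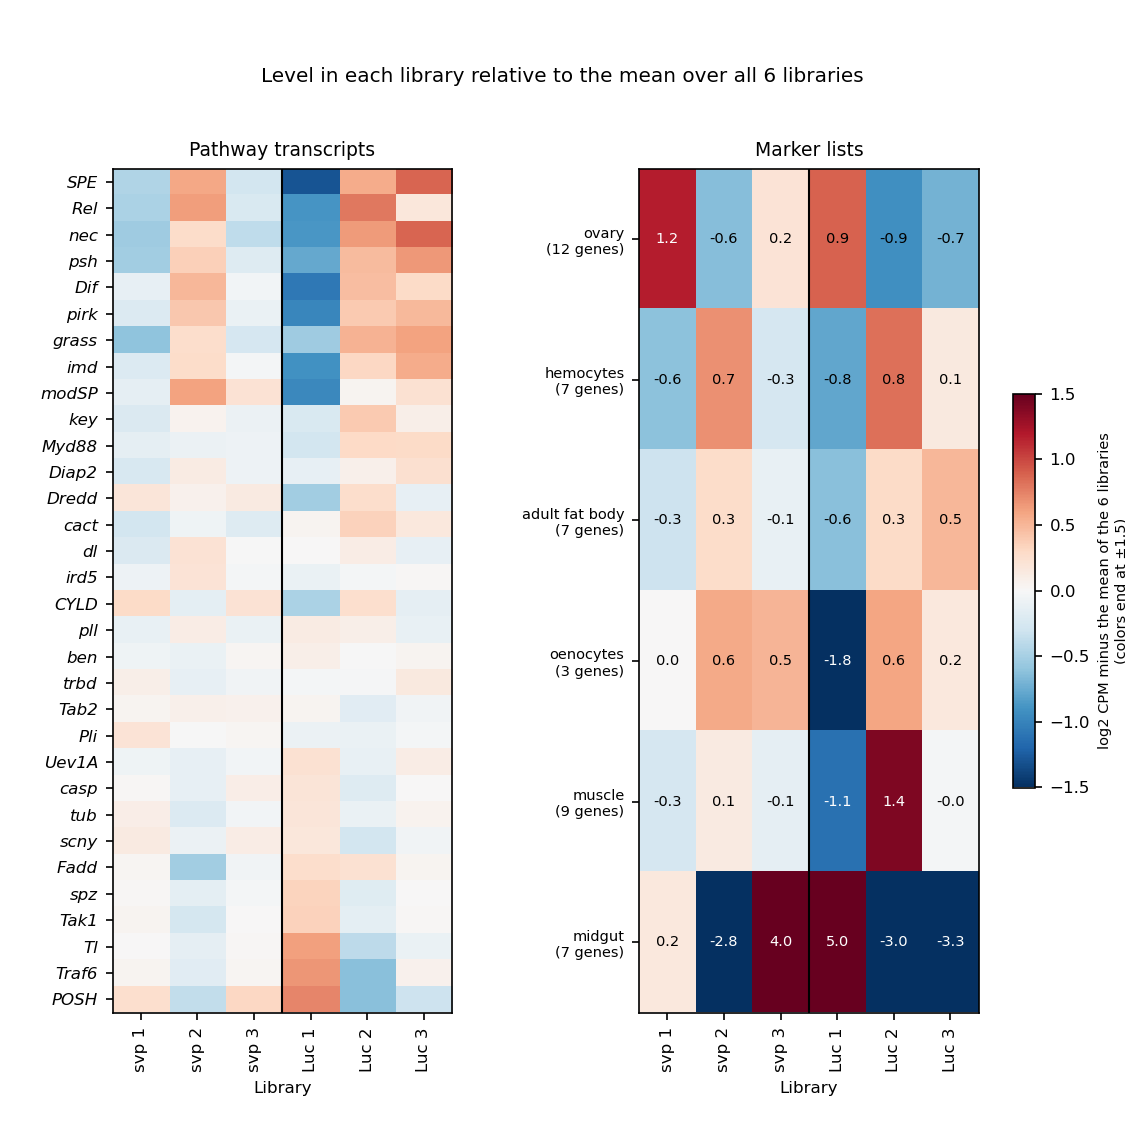
Log2 CPM of each pathway transcript (left, ordered by its slope on the ovary score) and mean log2 CPM of 6 marker lists (right) in the 3 libraries labelled *svp* RNAi and then the 3 *Luc* control RNAi libraries, as the difference from the mean over the 6 libraries. *SPE*, *Rel*, *nec* and the other transcripts at the top are low where the ovary row is high, in library 1 of each group, and *Tl*, *Traf6* and *POSH* at the bottom are highest in control library 1.

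With the ovary score in the model, 0 of 32 pathway transcripts passed at an adjusted p under 0.05. *modSP* then had a log2 fold change of 0.72 (SE 0.17, edgeR adjusted p = 0.164), the transcript's largest value under any setting tried, while *nec* and *grass* were at -0.09 and -0.12. Control library 1 also bore on these genes. Without it, 3 of 32 were lower at an unadjusted p under 0.05, where 8.69% of all genes were: *nec* at -0.89, *grass* at -0.69 and *Myd88* at -0.36, none of which passed after adjustment by edgeR (adjusted p 0.249 to 0.343), and *modSP* was at 0.16. When limma's voom gave each library its own weight, *nec* (-1.14, adjusted p = 0.0240) and *grass* (-0.86, adjusted p = 0.0396) were called lower, 2 of 32 where 5.11% of all genes were. In that fit 10 of 32 had an unadjusted p under 0.05, where 26.6% of all genes did, and *modSP* was at 0.01. The fitted differences of these transcripts thus depended on how control library 1 and the ovary score were treated. The ratio of *modSP* to *grass* was not fitted with the ovary score.

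Among other pathway genes on the lists below that passed the low-count filter, none was called by edgeR or DESeq2. These lists do not hold every gene of the pathways. Of 24 Toll neighbours, which are other Toll receptors, Spätzle family ligands, proteases, serpins and regulators, 17 were tested, with 3 above 0, 14 below 0 and a median of -0.18. At an unadjusted p under 0.05 in edgeR's test 1 of the 17 passed, where 4.99% of all genes did, and voom called 3, where it called 6.51% of all genes in either direction. All 20 IMD neighbours, which include peptidoglycan receptors and the JNK branch, were tested, with 8 above 0, 12 below 0, a median of -0.03 and none at an unadjusted p under 0.05 or called by voom. The 18 pathway outputs, antimicrobial peptide genes and related immune effectors, had 8 above 0, 10 below 0 and a median of -0.14, with log2 fold changes between -1.71 and 1.26. Of these 18, 1 had an unadjusted p under 0.05, where 4.99% of all genes did, and voom called 8, where it called 6.51%. With the ovary score, 15 of the 18 outputs fell at an adjusted p under 0.05 in edgeR's test, where 15.1% of all genes did, as did 4 of the 17 Toll neighbours and 6 of the 20 IMD neighbours. Rising with the score were 0 of the 18 outputs, 4 of the 17 Toll neighbours and 3 of the 20 IMD neighbours, where 17.1% of all genes rose. That relation was looked at after the values were seen, and the part of ovary RNA in it was not tested.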

How the data were processed

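RNA sequencing libraries were made by the study from poly(A)-enriched RNA of dissociated abdominal fat body, 3 labelled *svp* RNAi and 3 *Luc* control RNAi, with 150-base paired reads. The authors aligned reads with TopHat to the Ensembl reference and made counts per gene with HTSeq, which were deposited without normalization; tool versions, the strand setting and the treatment of reads with several matches are not given in the sources used here. The deposited FPKM equal the counts divided by the library total and by 1 length per gene, in all 9895 genes with a count in every library, to a relative tolerance of 1e-06. Positions of all 32 genes equal those of the BDGP6 reference annotation, and 16 of the 32 overlap another gene.

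Counts were tested with edgeR 4.0.16 in R 4.3.3 (TMM, filter on low counts by group, quasi-likelihood test, two-sided, Benjamini-Hochberg adjustment over 9277 genes, threshold 0.05). In simulated data at the dispersion trend of these libraries, the test found 162 of 200 genes changed by 2 on the log2 scale and called 7 unchanged genes. That change exceeds every difference fitted for the 32 transcripts, which were at most 0.56 in size. The simulation gave genes no dispersion of their own and held no outlying library, so it does not measure the power for these transcripts. DESeq2 1.42.0, limma 3.58.1, other scalings and filters, FPKM on a log2 scale with pseudocounts of 1 and 0.1, the replicate number as a block, the ovary score as covariate and leaving out each library were alternatives. The p-values measure the spread between these libraries, which may be technical in part.

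The pathway genes and the lists were chosen with earlier results of these data known. Values per library are given for genes called or not overlapping between the groups, for *spz*, *Tl*, *Myd88*, *cact*, *dl*, *Dif*, *imd*, *key*, *Rel* and *pirk*, and for the 3 most and 3 least abundant; *modSP*, *grass*, *ben*, the slopes on the ovary score and the ratios were chosen after their values were seen. No sequences are shown.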

Additional observations from a re-analysis of the deposited data

How the results depend on the processing

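The count of pathway transcripts called was 0 in the main analysis and in 15 of the 16 alternatives; limma's voom with library weights gave 2. The median log2 fold change of the transcripts lay between -0.11 and -0.01 over the leave-one-out fits. Over all genes, 9 were called in the main analysis, 14 with RLE size factors, 152 with DESeq2, 604 with voom, 25 without the low-count filter, 27 with the replicate block, 47 with the ovary score, 44 with log2(FPKM + 1), 42 with log2(FPKM + 0.1), and 3 to 61 when 1 library was left out, the 61 without *Luc* control RNAi library 1. The correlations of same-numbered deviations were 0.50, 0.54 and -0.31, and library 2 labelled *svp* RNAi correlated with control library 3 at 0.50. These values do not settle whether the replicate numbers pair the libraries. The block changed no pathway call. In raw-total CPM and in FPKM, 0 transcripts were separated and lower, against 2 in TMM-scaled CPM.

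None of the 32 signs rests on a passed test. In 15 transcripts the sign held in every alternative, and in 17 it turned in at least 1, and the cause was not tested. With RLE size factors *dl* was at -0.0031. With upper quartile scaling *pirk* was at 0.00033 and *casp* at 0.036. With DESeq2 *dl* was at -0.0080 and *POSH* at -0.0016. With voom *Tl* was at 0.12, *Dif* at -0.28, *ird5* at -0.029, *casp* at 0.083 and *Traf6* at 0.016. With the replicate block *dl* was at -0.0020, *imd* at 0.027 and *pirk* at 0.064. With the ovary score *psh* was at 0.064, *SPE* at 0.32, *imd* at 0.28, *Rel* at 0.31, *pirk* at 0.35 and *POSH* at -0.13. With log2(FPKM + 1) and log2(FPKM + 0.1), *imd* was at 0.066 and 0.071, *pirk* at 0.11 and 0.11, and *casp* at 0.037 and 0.041.

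When 1 library was left out in turn, the log2 fold change ranged from -0.24 to 0.067 for *spz*, -0.34 to 0.25 for *Tl*, -0.18 to 0.0093 for *tub*, -0.14 to 0.011 for *pll*, -0.11 to 0.11 for *dl*, -0.20 to 0.38 for *Dif*, -0.67 to 0.12 for *SPE*, -0.37 to 0.20 for *imd*, -0.014 to 0.13 for *ird5*, -0.26 to 0.034 for *Tak1*, -0.52 to 0.32 for *Rel*, -0.35 to 0.20 for *pirk*, -0.10 to 0.13 for *casp*, -0.21 to 0.59 for *POSH*, -0.43 to 0.25 for *Traf6* and -0.0051 to 0.25 for *scny*. Every pathway transcript had at least 83 counts in each library.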
